A study of Mus musculus with 8 samples.

Results

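The 39 protein-coding Hox genes of the mouse were read out of the deposited RNA sequencing table of renal cortex, by a gene type of protein coding and a symbol made of Hox, a cluster letter from a to d and a paralog number. They are 39 of the 35275 genes in the table. This rule uses no measured value, though it was set with earlier results of these data known. Each of the 8 libraries came from the renal cortex of 1 mouse at postnatal day 7. The 4 control mice carried no Cre (Con1391, Con1452, Con1822 and Con1823), and the 4 mutants were Six2-Tfam knockouts (Mut1393, Mut1453, Mut1454 and Mut1819), in which Tfam, a packaging and transcription factor of mitochondrial DNA, is targeted. Six2 marks the nephron progenitors, so a Six2-driven Cre acts in those cells and their epithelial descendants, while collecting duct, stroma, vessels and immune cells of the same cortex arise elsewhere. No library carried Cre with an intact Tfam, so the presence of Cre and the loss of Tfam cannot be told apart.

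Hox genes encode homeodomain transcription factors that lie in 4 clusters, and within each cluster the paralog number runs from the anterior-type genes at one end to the posterior-type genes at the other. Genes with the same number in different clusters are copies of one ancestral gene and share much of their function. In the mouse kidney the Hox11 paralogs are known for their joint role in starting the ureteric bud, acting with Eya1 and Pax2 on Six2 and Gdnf. Hoxb7 is known as a gene of the ureteric bud and collecting duct, and Hox10 paralogs for their part in the renal stroma.

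On build mm10 the table's identifiers placed all 39 genes, through GENCODE M21, in the 4 known clusters. The Hoxa cluster holds 11 of them on the minus strand of chromosome 6, the Hoxb cluster 10 on the plus strand (chr11:96194316-96368256), the Hoxc cluster 9 on the plus strand (chr15:102921103-103036852) and the Hoxd cluster 9 on the plus strand (chr2:74668310-74765142). The Hoxb, Hoxc and Hoxd clusters span 174, 116 and 97 kb. The coding sequences of paralogs are alike, which bears on how reads are assigned to them, and the Hox11 trio is shown because 2 of its members rose in the mutants and the third did not pass the test. The lines give the 180-base homeobox of each from its GENCODE M21 transcript, and the capitals mark the 45 positions at which the 3 genes are not all the same.
Hoxa11: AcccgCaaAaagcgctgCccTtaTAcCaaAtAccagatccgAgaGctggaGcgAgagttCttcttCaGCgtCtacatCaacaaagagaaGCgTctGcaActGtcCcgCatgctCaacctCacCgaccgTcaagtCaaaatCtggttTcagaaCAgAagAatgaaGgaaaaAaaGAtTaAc
Hoxc11: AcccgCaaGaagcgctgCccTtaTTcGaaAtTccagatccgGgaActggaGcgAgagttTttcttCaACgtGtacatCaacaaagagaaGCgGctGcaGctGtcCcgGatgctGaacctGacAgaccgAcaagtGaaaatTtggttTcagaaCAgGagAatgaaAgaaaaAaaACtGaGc
Hoxd11: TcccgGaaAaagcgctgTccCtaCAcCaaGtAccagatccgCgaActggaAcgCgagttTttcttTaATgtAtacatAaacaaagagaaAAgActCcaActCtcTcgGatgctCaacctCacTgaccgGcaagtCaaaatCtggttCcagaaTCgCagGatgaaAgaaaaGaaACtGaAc

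In these homeoboxes Hoxa11 and Hoxc11 were identical at 86.7% of bases, Hoxa11 and Hoxd11 at 80.6%, and Hoxc11 and Hoxd11 at 79.4%. Over the tested Hox genes, the 32 pairs of equal paralog number had a median homeobox identity of 82.8%, against 63.3% for the 433 other pairs. Sequences were compared in the longest protein-coding transcript of each gene, and there the longest run of bases shared by a pair of tested Hox genes was 52, between Hoxa6 and Hoxb4. Other transcripts were not compared, and the exons of Hoxd3 and Hoxd4, and of Hoxc10 and Hoxc5, overlap in the annotation by the shares given beside these genes.

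RefSeq promoters (build GRCm38.p6, 250 bases before to 50 after the start) were at hand for 22 of the 39 genes, in 24 entries. Hoxb8 and Hoxd8 are shown because they share a paralog number and a high level, while Hoxb8 had the smallest adjusted p of the tested Hox genes and Hoxd8 the largest. Capitals mark matches, on either strand, to 3 motifs. These were TATAAA, the core of the TATA box, then CCAAT, the box of that name, and TGATNNAT, a form of the joint Hox and Pbx binding sequence. The Hoxb8 window is chr11:96281655-96281954 and the Hoxd8 window chr2:74704365-74704664, both on the plus strand.
Hoxb8: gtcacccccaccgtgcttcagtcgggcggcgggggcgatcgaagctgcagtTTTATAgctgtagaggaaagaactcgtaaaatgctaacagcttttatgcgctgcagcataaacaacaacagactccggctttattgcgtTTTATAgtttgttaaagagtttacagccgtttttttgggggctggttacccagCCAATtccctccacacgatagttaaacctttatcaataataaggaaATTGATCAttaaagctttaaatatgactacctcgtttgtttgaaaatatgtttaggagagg
Hoxd8: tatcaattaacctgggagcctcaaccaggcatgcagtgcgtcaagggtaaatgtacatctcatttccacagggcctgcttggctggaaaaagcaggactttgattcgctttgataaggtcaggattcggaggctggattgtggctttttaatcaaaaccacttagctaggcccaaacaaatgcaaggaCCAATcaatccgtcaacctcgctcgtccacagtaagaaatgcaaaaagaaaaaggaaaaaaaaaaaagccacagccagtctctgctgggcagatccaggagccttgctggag

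The Hoxb8 window held 2 TATAAA matches on the minus strand, 1 CCAAT and 1 TGATNNAT, with no overlap among them, and the Hoxd8 window held a single CCAAT match. Of these motifs, TATAAA was present in 4 of the 24 Hox entries and in 13.6% of all 32851 promoters, CCAAT in 15 and in 37.4%, and TGATNNAT in 4 and in 8.85%. TGANTCA, an AP-1 sequence, was present in 1 Hox entry and in 7.81% of all promoters, and TGATGNAA, a sequence bound by ATF4, in 0 and in 3.97%. The Hox promoters held a median of 14.5 CG dinucleotides, with a range of 4 to 45, against a median of 7 over all promoters. These matches are letters in a window and were not tested for binding.

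Total counts per library ranged from 15597762 to 20417550. Tfam stood at 48.7 to 54.8 CPM (read counts scaled to library size) in the controls and at 26.5 to 27.6 in the mutants, a log2 fold change of -0.98 ± 0.06 (SE, edgeR adjusted p = 1.58e-07). Chromosome M genes took 3.88 to 9.28% of counts in controls and 1.15 to 1.84% in mutants. The labels do not give the sex of the mice. The 4 Y-linked genes read summed to 0, 2, 3 and 2 counts in the controls. In the mutants they summed to 4915, 4294, 4862 and 27, so that only Mut1819 shared the low Y-linked count of the controls. Reads of Xist, a transcript of female cells, numbered 11176, 15593, 10275 and 12641 in controls and 141, 52, 13 and 13831 in mutants. The controls and Mut1819 thus read as female, and Mut1393, Mut1453 and Mut1454 as male. Sex therefore went largely with group in every fold change and call given here. Its part was not tested beyond fits that rest on Mut1819. Values from Mut1819 alone are given for the 8 Hox genes that rose. The 12 proximal tubule markers all fell (summed level 6123 to 8468 CPM in controls and 707 to 1343 in mutants), and all 9 macrophage and leukocyte markers rose (146 to 176 CPM in controls and 255 to 306 in mutants). Over all 15028 genes tested with edgeR's quasi-likelihood test at an adjusted p of 0.05, 3532 (23.5%) were higher and 3416 (22.7%) lower in mutants, 46.2% in either direction.

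The renal cortex expressed most of the Hox family. Of the 39 genes, 31 had enough counts to be tested, and their level in control cortex varied widely. The authors' FPKM values, which scale counts by gene length and library size, allow levels of different genes to be compared. Hoxd8 was the highest Hox gene, at 165, 150.4, 177 and 164 FPKM in the controls in the order given above and at 165, 189.5, 182 and 158 in the mutants. Its control mean was 164 ± 10.9 (SD, n = 4), and the groups overlapped.

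Hoxa10 followed at 78.3, 71.4, 82.3 and 80.3 FPKM in controls and 86.2, 81.4, 73.3 and 92.5 in mutants. Hoxb7 was next at 49.0, 42.2, 52.5 and 47.8 FPKM in controls and 51.5, 50.4, 45.3 and 46.7 in mutants. Both had overlapping groups. Hoxd8 lay above Hoxa10 in every control, and Hoxa10 above Hoxb7 in every control, with no overlap of their ranges.

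Behind these 3, Hoxd9 (45.3 ± 3.34 FPKM), Hoxa9 (40.3 ± 3.64), Hoxb8 (34.5 ± 4.24), Hoxb9 (27.1 ± 2.79), Hoxb6 (22.6 ± 2.74), Hoxa7 (21.8 ± 1.46) and Hoxd10 (20.2 ± 2.28) followed in controls (SD, n = 4), each overlapping the next in its range. A gap separated Hoxd10 from Hoxc6 at 14.6 ± 0.877 FPKM. From Hoxc6 the levels passed through Hoxd11 (12.3), Hoxc10 (10.5), Hoxa11 (9.48), Hoxa5 (9.37), Hoxc9 (9.02), Hoxc8 (7.65) and Hoxb3 (7.44), neighbours that overlapped, and a further gap set Hoxb3 above Hoxa3 (5.30). Hoxb4 (4.98), Hoxa6 (4.17), Hoxb5 (3.77), Hoxc4 (2.88), Hoxc5 (2.36), Hoxd4 (2.07), Hoxa2 (1.43), Hoxc11 (1.43), Hoxb2 (1.22), Hoxa4 (0.964) and Hoxd3 (0.856) each overlapped the next in this order. In mutants the mean of Hoxb8 was 56.7 ± 0.881 FPKM, the third highest behind Hoxd8 (174 ± 14.5) and Hoxa10 (83.3 ± 8.08).

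**Figure D1:**
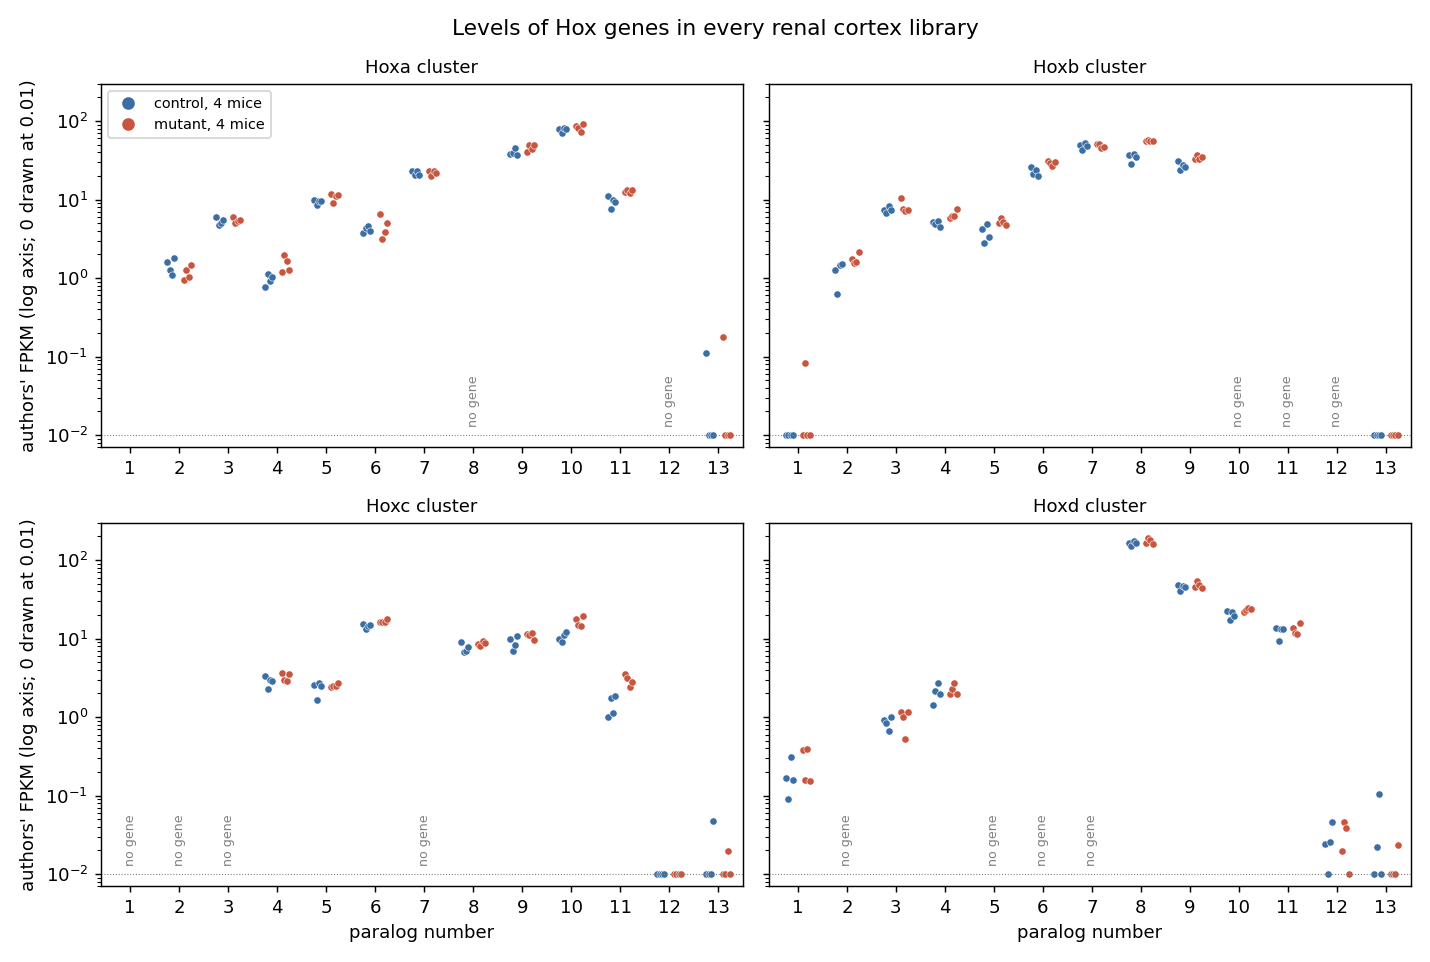
Authors' FPKM of Hox genes in each of the 8 libraries, on a log axis with values of 0 drawn at 0.01; each panel is a cluster, the horizontal axis is the paralog number, and blue and red points are control and mutant mice. Levels are highest at paralogs 7 to 10 in Hoxa, Hoxb and Hoxd, with Hoxd8 at a control mean of 164 FPKM. In Hoxc the highest is Hoxc6, at a control mean of 14.6 FPKM. Paralogs 12 and 13 lie at or near 0.

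The silent genes sat at the ends of the clusters. The posterior paralogs 12 and 13, which in the mouse pattern digits, hindgut and genital tissue, had 24 counts in all over their 6 members and the 8 libraries. Hoxb13 and Hoxc12 had 0 counts in every library, where a count of 0 allows up to 3 counts per library from counting error alone. Hoxc13 had 3 counts in all, Hoxa13 6, Hoxd13 6 and Hoxd12 9.

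At the anterior end Hoxb1, which acts in the hindbrain, had 2 counts in all. Hoxd1 was low, with 61 counts over the 8 libraries, and did not pass the filter on low counts. At these counts a difference between the groups was not detectable.

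Paralog group 8 held 33.6% of the summed Hox FPKM in controls, group 9 held 19.8%, group 10 held 17.7%, group 7 held 11.3%, group 6 held 6.75% and group 11 held 3.76%. By cluster, Hoxd held 39.9%, Hoxa 27.9%, Hoxb 24.3% and Hoxc 7.89%. Level did not follow the paralog number in the same direction in all clusters. Spearman's rho between level and paralog number was 0.38 over the 11 Hoxa genes, 0.41 over 10 Hoxb genes, -0.52 over 9 Hoxc genes and -0.22 over 9 Hoxd genes, as a description over genes that share libraries.

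Between mutants and controls 8 of the 31 tested Hox genes rose and 0 fell. The share that rose, 25.8%, is close to the 23.5% of all tested genes that were higher, so the count of risers does not set the family apart. None of the 31 was lower, where 22.7% of all tested genes were, and this comparison of shares was not tested. At an unadjusted p under 0.05, 9 Hox genes passed, and DESeq2 and limma-voom each gave 8 higher and 0 lower. The log2 fold change was positive for 27 of the 31 genes, against 49.9% of all tested genes, with a median of 0.12 for Hox genes and 0.00 for all. With a term for the range of the mouse numbers 8 Hox genes were higher (24.3% of all genes) and 0 lower (23.9%), with Hoxb2 (0.64, edgeR adjusted p = 0.016) among them and Hoxb5 (adjusted p = 0.0619) no longer.

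The changes were small, and 0 Hox genes rose by more than 1 log2 unit, where 3.72% of all tested genes did. Among the 8 that rose the fold ranged from 1.21 to 1.95, and the median size of the log2 fold change was 0.13 over the Hox genes against 0.24 over all tested genes. Where 1 cell type supplies a transcript, fewer such cells and less RNA per cell cannot be told apart in whole cortex. The fall of proximal tubule markers and the rise of leukocyte markers moved with the group, and their part in the Hox differences was not tested. In the authors' deposited table the same 8 Hox genes were under an adjusted p of 0.05, all with positive log2 fold changes.

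**Figure D2:**
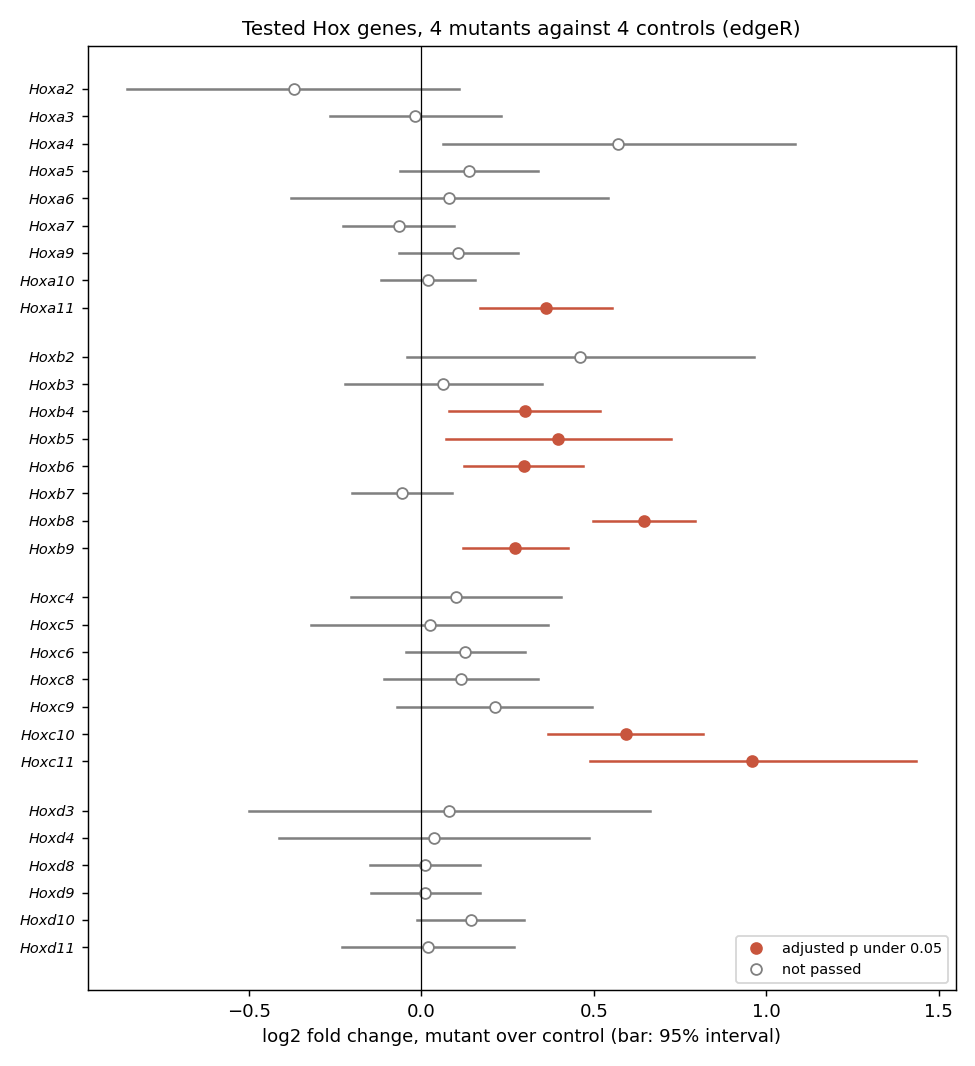
Log2 fold change of mutant over control for tested Hox genes, ordered by cluster and paralog number; points are edgeR estimates from 4 mutant and 4 control mice, bars are 95% intervals, and filled red points had an adjusted p under 0.05. The 8 filled points lie between 0.27 (Hoxb9) and 0.96 (Hoxc11), and none lies below 0.

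Hoxb8, known in the mouse for roles in myeloid cells and microglia, had the smallest adjusted p. Its level was 55.1, 45.1, 55.1 and 53.8 CPM in controls and 80.7, 84.2, 82.6 and 79.6 in mutants. Every mutant stood above every control, and the lowest control, Con1452, stood apart from the other controls. Hoxb8 rose by a log2 fold change of 0.65 ± 0.07 (SE, edgeR adjusted p = 1.06e-05).

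Hoxc10, which in the mouse acts in hindlimb motor neurons, was at 19.4, 18.4, 20.8 and 23.6 CPM in controls and at 32.6, 28.1, 27.8 and 35.6 in mutants. All mutants were above all controls, with Mut1819 the highest. On the log2 scale Hoxc10 rose by 0.59 ± 0.10 (SE, edgeR adjusted p = 5.35e-04). By GENCODE M21, 8.7% of the Hoxc10 exon bases are shared with Hoxc5 on the same strand, and Hoxc5 itself had a log2 fold change of 0.02 with a 95% interval of -0.32 to 0.37.

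Hoxc11 had the largest fold and the lowest level of those that rose. It was at 2.08, 3.78, 2.29 and 3.81 CPM in controls and at 6.97, 6.19, 4.87 and 5.32 in mutants, from 33 to 63 reads in a control and 97 to 143 in a mutant. The groups did not overlap, and the controls themselves split into a lower and a higher pair. Hoxc11 rose by a log2 fold change of 0.96 ± 0.22 (SE, edgeR adjusted p = 0.00323).

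Hoxa11, the other Hox11 gene that rose, was at 24.5, 18.2, 21.4 and 21.1 CPM in controls and 26.8, 28.8, 26.4 and 27.6 in mutants. The mutants lay close together and above all controls. On the log2 scale Hoxa11 rose by 0.36 ± 0.09 (SE, edgeR adjusted p = 0.0052). Its antisense partner Hoxa11os overlaps 35.0% of its exon bases and rose too, from 11.2 ± 1.82 to 14.2 ± 0.866 CPM (SD, n = 4; log2 fold change 0.35 ± 0.12 SE, edgeR adjusted p = 0.0306). Whether the counting used strand is not given in the sources used here, so reads of the pair cannot be told apart.

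Hoxd11, the third Hox11 gene, stood at 30.7, 22.3, 29.2 and 30.1 CPM in controls and 29.7, 25.6, 25.4 and 33.2 in mutants. The groups overlapped almost fully. Its log2 fold change was 0.02, with a 95% interval of -0.23 to 0.27, so an increase as large as the estimate for Hoxa11 lies outside it. Between the longest transcripts of the trio, whose homeoboxes are printed above, the longest shared run was 20 bases for Hoxa11 and Hoxc11, 17 for Hoxa11 and Hoxd11, and 12 for Hoxc11 and Hoxd11.

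In the Hoxb cluster 5 of 8 tested genes rose, Hoxb8 among them, where 23.5% of all tested genes were higher. Hoxb9, which patterns thoracic ribs, was at 75.3, 62.6, 66.4 and 65.1 CPM in controls and 76.6, 89.1, 78.8 and 81.3 in mutants. The lowest mutant was just above the highest control. Hoxb9 rose by a log2 fold change of 0.27 ± 0.07 (SE, edgeR adjusted p = 0.00709).

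Hoxb6, a gene of limb and lateral plate mesoderm, was at 43.6, 37.1, 38.2 and 33.8 CPM in controls and 49.8, 47.3, 43.7 and 46.9 in mutants. The groups touched, with Mut1454 barely above Con1391. On the log2 scale Hoxb6 rose by 0.30 ± 0.08 (SE, edgeR adjusted p = 0.00875).

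Hoxb4, known for expanding blood stem cells, was at 13.7, 13.4, 13.6 and 11.8 CPM in controls and 14.7, 15.4, 16.0 and 18.6 in mutants. The groups did not overlap, but the lowest control, Con1823, and the highest mutant, Mut1819, were each the farthest from the rest of their group. Hoxb4 rose by a log2 fold change of 0.30 ± 0.10 (SE, edgeR adjusted p = 0.0277). Its adjusted p was 0.0883 without Con1823, 0.0501 without Mut1454 and 0.0841 without Mut1819.

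Hoxb5, a gene of foregut, vessels and gut nerves, was at 9.97, 6.96, 11.2 and 7.98 CPM in controls and 11.4, 13.4, 12.2 and 10.5 in mutants. Here the groups overlapped, as Con1822 exceeded Mut1819. On the log2 scale Hoxb5 rose by 0.40 ± 0.15 (SE, edgeR adjusted p = 0.0466). The call was lost without Con1452 (adjusted p = 0.108), Con1823 (0.124), Mut1393 (0.054), Mut1453 (0.122) or Mut1454 (0.0941), and with the mouse-number term (0.0619).

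**Figure D3:**
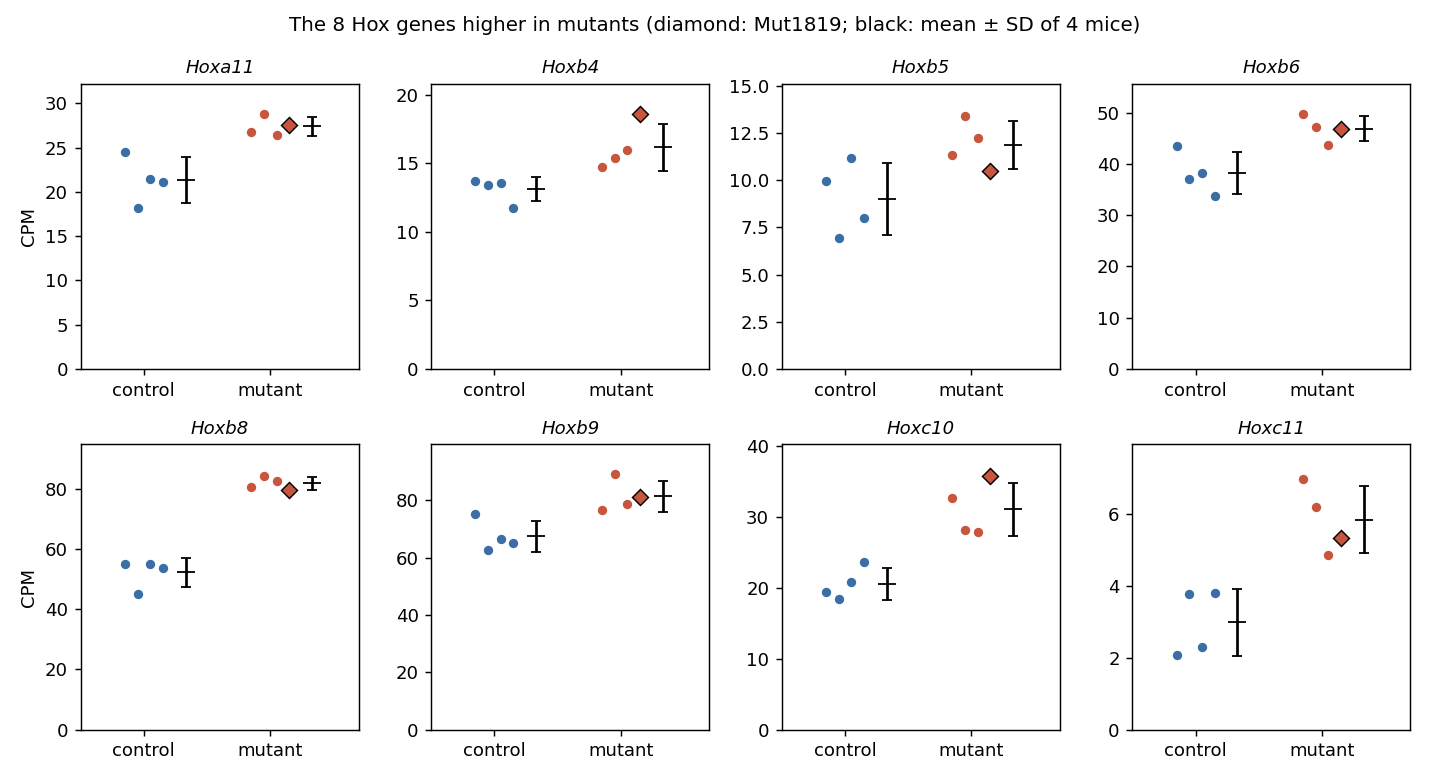
CPM in each library of the 8 Hox genes with an adjusted p under 0.05; blue and red points are control and mutant mice, the diamond is Mut1819, the mutant with a low Y-linked count, and black bars are mean ± SD of 4 mice. In 7 of the 8 genes every mutant lies above every control, the exception being Hoxb5. The 8 were picked by adjusted p, so this separation is no further support. Over all tested genes 22.1% had every mutant above every control.

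Comparison with the Y-linked count is limited by Mut1819, the sole mutant with a low one. With a term for a high or low Y-linked count in the edgeR fit, 3 Hox genes were higher and 0 lower. Over all tested genes 12.6% were higher and 13.8% lower. The 3 Hox genes were Hoxb8, Hoxc10 and Hoxb4. Only mutants fall in the high class, so the group effect in this fit rests on Mut1819 against the controls. A fit of Mut1819 alone against the 4 controls rests on the same mouse and is not a separate check. It assumes that the lone mutant varies like the controls. For Mut1819 alone the log2 fold change was 0.61 for Hoxb8, 0.79 for Hoxc10 and 0.50 for Hoxb4. It was 0.37 for Hoxa11, 0.30 for Hoxb6, 0.27 for Hoxb9, 0.83 for Hoxc11 and 0.22 for Hoxb5.

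The remaining 23 tested genes did not pass, and for 17 of them the 95% interval of the log2 fold change lay within ±0.5. The 5 most abundant Hox genes in controls were among these. The log2 fold change was 0.01 for Hoxd8 (95% interval -0.15 to 0.17), 0.02 for Hoxa10 (-0.12 to 0.16) and -0.06 for Hoxb7 (-0.20 to 0.09). For Hoxd9 it was 0.01 (-0.15 to 0.17) and for Hoxa9 0.11 (-0.06 to 0.28). A miss of the threshold does not show that these genes were equal in both groups, and their intervals bound the difference to within 0.28 on the log2 scale.

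Among the other tested genes were 6 with intervals that reached past ±0.5 in log2 fold change. For Hoxa4 it was 0.57 (95% interval 0.06 to 1.08, edgeR adjusted p = 0.0627), and it passed without Mut1393 (0.68, adjusted p = 0.0384). Hoxb2, a hindbrain gene, stood at 0.46 (-0.04 to 0.96). Hoxa2, which patterns the second branchial arch, had the lowest value of all at -0.37 (-0.85 to 0.11). Hoxa6 stood at 0.08 and Hoxd3 at 0.08, the latter sharing 62.3% of its exon bases with Hoxd4 and the annotated gene Gm28230 together on the same strand, so the counts of Hoxd3 and Hoxd4 are uncertain.

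Among the rest, Hoxc6 stood at 14.5 to 15.8 CPM in controls and 16.0 to 17.2 in mutants. The groups did not overlap, yet the log2 fold change was 0.13 (edgeR adjusted p = 0.207). In all, 8 of the 31 genes had every mutant above every control (22.1% of all tested genes did) and 0 had every mutant below (20.8%). Hoxd10 stood at a log2 fold change of 0.14 (adjusted p = 0.119) and Hoxc9 of 0.21 (0.201). Hoxa5 stood at 0.14, Hoxc8 at 0.12, Hoxc4 at 0.10, Hoxb3 at 0.06, Hoxd4 at 0.04, Hoxa3 at -0.02 and Hoxa7 at -0.07, none past the threshold. Hoxb3os overlaps 52.9% of the exon bases of Hoxb3 and 27.3% of those of Hoxb2, and Hoxaas3 20.4% of those of Hoxa7, all on the opposite strand.

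By cluster, 5 of 8 tested Hoxb genes, 2 of 7 Hoxc genes, 1 of 10 Hoxa genes and 0 of 6 Hoxd genes rose, against 23.5% of all tested genes. Summed over the Hoxb cluster the level was 254, 216, 244 and 229 CPM in controls and 295, 306, 286 and 289 in mutants. For the Hoxc cluster it was 82.8, 71.3, 75.1 and 86.5 CPM in controls and 101, 93.3, 96.1 and 100.3 in mutants. Neither cluster's groups overlapped. Both sums hold genes that rose, so they in part restate single genes. Hoxb8 went from a mean of 52.3 to 81.8 CPM and Hoxc10 from 20.6 to 31.0. Hoxb7, in the same Hoxb sum, stood at means of 40.8 CPM in controls and 39.3 in mutants.

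The Hoxa sum was 281 ± 6.24 CPM in controls and 295 ± 11.9 in mutants, and the Hoxd sum 449 ± 17.9 and 456 ± 35.3 (SD, n = 4). The groups overlapped in both. Of the summed Hox FPKM, the Hoxb share was 24.3 ± 0.750% in controls and 27.1 ± 0.638% in mutants, and the Hoxd share 39.9 ± 0.306% and 37.3 ± 2.20%. All 39 genes together stood at 1044 ± 42.4 CPM in controls and 1143 ± 30.7 in mutants. By paralog number, 5 of 13 tested genes numbered 8 to 11 rose and 3 of 18 numbered 1 to 7, beside the 23.5% of all tested genes. These differences between clusters and between paralog numbers were not tested.

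Ratios of counts within a library do not depend on how libraries are scaled. They were taken for all 32 pairs of tested genes with equal paralog number and all 27 pairs of tested neighbours in a cluster, a comparison chosen with the values of the genes known. Hoxb7 and Hoxb8 are neighbours, of which Hoxb8 alone passed the test of each gene. The ratio of Hoxb7 to Hoxb8 was 0.750, 0.839, 0.785 and 0.758 in controls and 0.516, 0.488, 0.453 and 0.464 in mutants. The mutants were all lower, by 0.71 on the log2 scale.

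The ratio of Hoxa10 to Hoxc10 was 6.93, 7.07, 6.61 and 5.90 in controls and 4.35, 4.81, 4.44 and 4.17 in mutants. The ratio of Hoxa11 to Hoxd11 was 0.799, 0.815, 0.733 and 0.699 in controls and 0.901, 1.12, 1.04 and 0.830 in mutants. In the first pair all mutants were lower, and in the second all were higher. In 10 of the 59 pairs the groups did not overlap, and the others of the 10 were Hoxa4 to Hoxd4, Hoxb8 to Hoxc8, Hoxb8 to Hoxd8, Hoxb9 to Hoxd9, Hoxa10 to Hoxa11, Hoxb6 to Hoxb7 and Hoxb8 to Hoxb9. Each of the 10 had a two-sided exact permutation p of 0.0286, the smallest that the 70 assignments of 8 libraries allow. Groups that do not overlap always give this p, so it adds nothing to the separation. The Benjamini-Hochberg value was 0.169 over the 59, so 0 pairs passed. With this floor 10 such pairs among 59 could not pass, so the test could not decide whether a ratio differed. All of the 10 but Hoxa4 to Hoxd4 hold a gene that rose, so they largely restate the results of single genes. The share of non-overlapping pairs among other genes was not taken, so the count of 10 does not set Hox pairs apart.

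**Figure D4:**
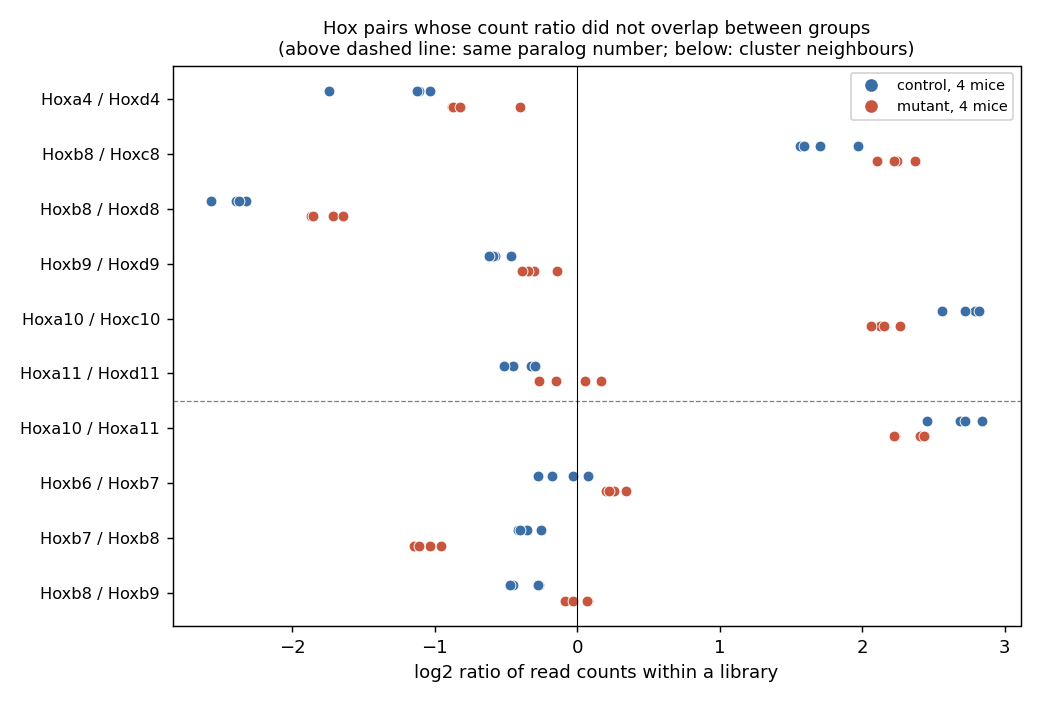
Log2 ratio of read counts of Hox gene pairs within each library, for the 10 of 59 pairs whose groups did not overlap; blue and red points are control and mutant mice, pairs above the dashed line share a paralog number and those below are cluster neighbours. The pair Hoxb7 and Hoxb8 shows a mean shift of -0.71 between the groups.

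Hox proteins bind DNA with the TALE homeodomain cofactors of the Pbx, Meis and Pknox families. Of 9 such genes tested, 1 rose and 2 fell (median log2 fold change -0.04), where 23.5% of all tested genes were higher and 22.7% lower, with a median of 0.00. Pbx3 rose from 25.2 ± 2.79 to 35.7 ± 4.66 CPM (SD, n = 4; log2 fold change 0.50, edgeR adjusted p = 0.00215). Pbx2 fell by 0.21 on the log2 scale (adjusted p = 0.0184) and Pbx4 by 0.62 (0.033), while Pknox2 at -0.31 did not pass (0.0723).

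Of the 10 genes listed as Hox11 partners and targets, 8 were tested, 3 rose and 1 fell (median 0.30), beside 23.5% higher and 22.7% lower over all genes. Sall1, a kidney transcription factor, rose from 72.2 ± 2.91 to 122 ± 5.08 CPM (SD, n = 4; log2 fold change 0.75, edgeR adjusted p = 5.01e-07). Eya1 rose by 1.39 on the log2 scale (adjusted p = 1.02e-04) and Pax2 by 0.33 (0.0267). Itga8, an integrin of the cap mesenchyme and stroma, fell by 0.81 (2.30e-06). Six2, the driver of the Cre, had 3, 0, 0 and 2 counts in controls and 15, 9, 6 and 12 in mutants. Those counts were higher in every mutant but too low to be tested. Only the mutants carried the Six2-driven Cre, and its part in these counts was not tested.

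Among 13 upstream regulators of the clusters, 9 were tested, 2 rose and 0 fell (median -0.04), against 23.5% and 22.7% of all genes. Aldh1a2, which makes retinoic acid, rose from 84.6 ± 9.54 to 164 ± 15.5 CPM (SD, n = 4; log2 fold change 0.95, edgeR adjusted p = 4.13e-06). Cyp26b1, which degrades it, rose by 0.69 on the log2 scale (adjusted p = 0.0348). Psip1 at 0.12 (0.0666) and Men1 at -0.13 (0.192) did not pass.

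Polycomb complexes keep Hox clusters silent where they are not used. Of 25 subunits tested, 10 rose and 1 fell (median 0.11), against 23.5% higher and 22.7% lower of all tested genes. The difference between these shares was not tested. Those with the smallest adjusted p were Pcgf6, up by 0.85 on the log2 scale (edgeR adjusted p = 6.57e-06), Bmi1, up by 0.42 (1.45e-04), Eed, up by 0.38 (5.63e-04), and Rbbp7, up by 0.35 (9.28e-04). The 1 subunit that fell was Jarid2 (-0.19, adjusted p = 0.0218), named after its value was seen.

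The transcripts within and beside the clusters moved in both directions. Of 20 listed non-coding RNAs of the clusters 10 had a row and 8 were tested, with 1 higher, Hoxa11os, and 1 lower, Hoxd3os1 (log2 fold change -0.52, edgeR adjusted p = 0.0159), and a median of -0.13. Hoxb5os, whose exons overlap 3.6% of those of Hoxb5, stood at -0.12 (0.183). Of 10 tested genes flanking the clusters 4 rose and 2 fell (median 0.15). Over all tested genes 23.5% were higher and 22.7% lower, which holds for both of these lists. They included Snx10 beside Hoxa (0.77, adjusted p = 9.90e-05), Skap2 beside Hoxa (0.35, 0.00537) and Skap1 beside Hoxb (0.85, 5.01e-04), which rose, and Hibadh near Hoxa (-0.53, 1.32e-04), which fell. Evx1 and Evx2, the homeobox genes at the posterior ends of Hoxa and Hoxd, had 0 counts.

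Markers of other cell types of the cortex moved with the group as well, to be read against the 23.5% of all tested genes that were higher and the 22.7% that were lower. Of 11 ureteric tip and trunk markers 2 rose and 1 fell (308 to 368 CPM summed in controls, 359 to 396 in mutants). Etv4 rose by 2.28 and Etv5 by 1.01 on the log2 scale (edgeR adjusted p = 4.57e-07 and 1.62e-05), and Wnt11 fell by 1.38 (5.01e-04). Of 9 tested principal cell markers 0 rose and 6 fell (1069 to 1232 CPM in controls, 693 to 1043 in mutants), and of 12 stroma and fibroblast markers 0 rose and 4 fell (5264 to 7432 and 5012 to 5940 CPM). Of 7 nephron progenitor markers 2 rose and 3 fell (211 to 242 CPM in controls, 146 to 164 in mutants). Itga8, which is also a gene of the stroma, made up most of this sum, at a mean of 184 CPM in controls and 105 in mutants. The lower sum thus came from Itga8 and not from the list as a whole. The part of these markers in the Hox values was not tested.

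The remaining epithelial and vascular lists held more lower than higher genes, where 22.7% of all tested genes were lower. All 9 intercalated cell markers fell (645 to 745 CPM in controls, 363 to 429 in mutants), as did 7 of 8 loop of Henle markers (2349 to 2732 and 1204 to 1523 CPM) and all 6 distal convoluted tubule markers (1357 to 1678 and 452 to 629 CPM). So did 6 of 7 podocyte markers (1656 to 1869 and 1095 to 1361 CPM) and all 8 endothelial markers (1050.1 to 1178 and 779 to 852 CPM). Markers of tissue beside the kidney were read as well. Adrenal markers summed to 3.11 to 3.75 CPM in controls and 2.14 to 2.97 in mutants, where 1 of 7 could be tested and fell, and Cyp11b1, Cyp11b2 and Dbh had 0 counts. Skeletal muscle markers summed to 1.69 to 3.85 and 2.08 to 3.26 CPM, with 0 of 3 tested called. Adipose markers summed to 48.7 CPM in Con1391 and 57.5 in Mut1393, and to between 0 and 0.487 CPM in each other library, and none was tested. Without Con1391 the same count of 8 Hox genes was higher, and without Mut1393 it was 8 as well, with Hoxa4 passing (adjusted p = 0.0384) and Hoxb5 not (0.054). Urothelial markers summed to 5.94 to 16.3 and 19.0 to 37.8 CPM. Of 3 tested 1 rose, Krt20, by 3.99 on the log2 scale (edgeR adjusted p = 5.39e-07), to a mutant mean of 23.9 CPM. The median of the 3 was -0.55. Upk1a (-0.55, adjusted p = 0.0658) and Upk1b (-1.29, 0.238) had lower values but did not pass. The untested Upk2, Upk3a and Krt5 had lower means in mutants too. The higher sum thus came from Krt20 and not from the list as a whole.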

How the data were processed

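Cortex RNA was extracted with Qiagen RNeasy columns and DNase, per the labels, and a company did the sequencing. The submitters' processing notes list TopHat2, Bowtie2, HTSeq and DESeq2 with build mm10. Their versions, the strand setting and the annotation release were not stated. Per the file headers, the deposited table holds a read count per gene and mouse, an FPKM value per gene and mouse, a mean signal per group, and the authors' log2 fold change with its p-value and adjusted p-value. The authors' FPKM values are counts scaled by 1 length per gene and by the total counts, and were used for levels only. The authors' signal was not used.

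Counts were fitted for all genes with edgeR 4.0.16 (quasi-likelihood test, filterByExpr, TMM factors, Benjamini-Hochberg adjustment over 15028 genes) under R 4.3.3, and CPM values use TMM-scaled library sizes. Alternatives were DESeq2 1.42.0, limma 3.58.1 (voom), other scalings, filters and covariates, and each mouse left out in turn. The edgeR fit was tested on simulated counts. Positions and exon overlaps came from GENCODE M21, and promoters from RefSeq. The homeobox was located by its conserved recognition-helix codons in each transcript.

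All 39 Hox genes enter the counts and sums, and 1 of them is not reported here by name or drawn. Values in every library are given for those with an adjusted p under 0.05 and for the 3 highest in controls by FPKM. From each other list up to 4 genes with the smallest adjusted p are named. The members and lists were chosen with earlier results of these data known. The depth of 15597762 to 20417550 counts per library limits genes below about 1 CPM, and count limits cover counting error only. Each library is labelled with a mouse number of its own, so p-values measure the spread between mice.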

Additional observations from a re-analysis of the deposited data

Results flagged for a closer look

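In 70 groups of 4 libraries (the 31 tested Hox genes and 4 cluster sums in each group) the gap between an extreme library and its nearest neighbour was set against the range of the group. It was too large in 2 groups, where chance flags about 1 in 20. Hoxb8 was at 45.1 CPM in Con1452, below the 53.8 to 55.1 CPM of the other controls. Hoxb4 was at 11.8 CPM in Con1823, below the 13.4 to 13.7 CPM of the other controls. Without Con1823 the adjusted p of Hoxb4 was 0.0883 (edgeR quasi-likelihood test).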

How the results depend on the processing

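The count of Hox genes higher in mutants was 8 under limma-voom, DESeq2, DESeq2's size factors within edgeR, totals that leave out chromosome M, both other filters and a term for the range of the mouse numbers. Leaving out each mouse in turn gave 6 to 8. It was 0 with a threshold of 1 log2 unit, 3 with the Y-linked count as a term and 3 with Mut1819 alone against the controls. The count of lower Hox genes was 0 under all 18 alternatives, leaving out each mouse included (0 to 0), while over all genes the counts under the 1 log2 threshold, the Y-linked term and Mut1819 alone were 559, 1891 and 1682 higher and 895, 2076 and 2002 lower. Leaving out each mouse gave 3083 to 3570 higher and 2967 to 3462 lower genes. The group effect with the Y-linked term rests on Mut1819 against the controls, as does the fit of Mut1819 alone. Both settings thus rest on a lone mutant, and any further cause of the smaller counts with the term was not tested. Hoxb8 and Hoxc10 were called under 17 of the 18 alternatives, Hoxa11, Hoxb6, Hoxb9 and Hoxc11 under 15, Hoxb4 under 14 and Hoxb5 under 9, with no change of sign. With the mouse-number term Hoxb2 passed (0.64, edgeR adjusted p = 0.016) and Hoxb5 did not (0.0619). Of the genes that did not pass, 11 changed sign under some alternative.

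The log2 ratio of summed CPM of all 39 genes, 0.13, was 0.20 without TMM factors and 0.19 from the authors' FPKM, and ranged from 0.10 to 0.14 with a mouse left out. For Hoxa it was 0.07, 0.14 without TMM factors and 0.14 from FPKM, with 0.04 to 0.09 when a mouse was left out. The ranges with a mouse left out were 0.28 to 0.36 for Hoxb, 0.26 to 0.35 for Hoxc and -0.02 to 0.06 for Hoxd. The number of Hox genes called expressed was 29 at a mean of 1 FPKM, 32 at 0.1 FPKM and 30 at 1 CPM, against 31. Mice were not paired one to one, because no mouse number is shared between the groups. Each range of mouse numbers did hold both controls and mutants, and the mouse-number term compares the groups within those ranges. What the ranges stand for is not given in the labels. Which genes were tested was set by the filter on low counts, not by a fixed CPM. Tnnt3, for example, was tested at means of 0.805 CPM in controls and 0.773 in mutants.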
